A study of Homo sapiens with 6 samples.

Results

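The NEK kinases are a family of serine/threonine kinases named for their likeness to NIMA, a mitotic regulator of the mould Aspergillus nidulans. The account covers 8 of them, NEK1, NEK2, NEK3, NEK4, NEK6, NEK7, NEK9 and NEK11, taken by gene name as 8 of 33097 records in the deposited gene table, and all 8 were measured in all 6 libraries. The table holds 11 NEK names, and below the family means the 8 covered. RNA was sequenced from CFPAC and KP3, established human pancreatic cancer cell lines, after control siRNA, NEK6 siRNA or NEK7 siRNA. Each combination of line and siRNA has 1 library. The control libraries have control siRNA in their titles and WT as their genotype and treatment, and the other libraries are given as NEK6 or NEK7 knockdown. No further allele or agent is given, and neither are the siRNA sequences, the dose or the time of harvest.

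Several NEK kinases act in mitosis and at the centrosome. NEK9 is activated in mitosis downstream of PLK1 and in turn activates NEK6 and NEK7, which share most of their kinase domain and help to build the spindle, in part through the kinesin KIF11. NEK7 has a separate role as a binding partner of NLRP3, the sensor of an inflammasome. NEK2 dissolves the linker between centrosomes by phosphorylating CEP250 and rootletin (CROCC). NEK1 and NEK4 have been tied to cilia and the DNA damage response, NEK11 to the DNA damage checkpoint through CDC25A, and NEK3 to prolactin receptor signalling through VAV2 and paxillin (PXN).

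The design asks whether each siRNA lowered its own target, whether it left the close paralog and the other family members where they were, and how the family differs between the lines. Since the siRNAs were aimed at a pair of paralogs, the likeness of their transcripts is shown before the values. In the GENCODE v29 transcripts with the longest coding sequence (GRCh38), NEK6 and NEK7 were identical at 69.35% of 907 aligned coding bases. Their longest shared run was 14 bases, and they shared 0 words of 19 bases, the usual length of the paired part of an siRNA. The run lies at chr9:124347778-124347791 on the plus strand in exon 10 of NEK6 and at chr1:198297196-198297209 on the plus strand in exon 9 of NEK7, in coding sequence of both. The windows below hold 25 bases on either side, with the shared run in capitals, and were identical at 47 of 64 bases.
NEK6: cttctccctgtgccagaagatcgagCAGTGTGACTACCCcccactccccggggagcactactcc
NEK7: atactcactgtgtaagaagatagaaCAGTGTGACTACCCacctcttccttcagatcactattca
NEK4, whose level was lower with NEK7 siRNA in both lines, had a longest shared run with NEK7 of 13 bases, AAATTTTATATTG, in the 3' UTRs at chr3:52711417-52711429 on the minus strand and chr1:198321836-198321848 on the plus strand. NEK4 and NEK7 also shared 0 words of 19 bases. Over the 27 pairs of the family other than NEK6 with NEK7, the longest run ranged from 12 to 32 bases, and NEK4 and NEK9 held the run of 32. Shorter matches, such as those of an siRNA seed, were not searched.

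In the coordinates of the table, which overlap the GENCODE v29 genes on GRCh38, NEK6 lies at chr9:124257606-124353307 on the plus strand and NEK7 at chr1:198156994-198322420 on the plus strand. NEK2 is also on chromosome 1, at chr1:211658657-211675630 on the minus strand. NEK4 lies at chr3:52708444-52770940 on the minus strand and NEK11 at chr3:131026850-131350465 on the plus strand. NEK1 lies at chr4:169392809-169612627 on the minus strand, NEK3 at chr13:52132639-52159861 on the minus strand and NEK9 at chr14:75079353-75127344 on the minus strand. All values are of whole genes, with no split by exon or transcript.

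Library totals ran from 59478910 to 66067379 counts, 11.35% to 17.87% of them from mitochondrially encoded genes. All 8 members passed the filter of at least 1 FPKM in at least 1 library, as did 14582 genes in all. FPKM values are read counts scaled to a length per gene and to library size, and levels are compared between genes on this scale. The lengths implied by counts, library totals and FPKM were longer than the transcripts used here. For NEK6 they were 5196 to 5285 bases against a transcript of 3619, and for NEK7 6390 to 6499 against 4149. The order of the members, their shares and the ratio of NEK7 to NEK6 depend on the length used. All 7 listed ductal markers reached 1 FPKM in a library, at unlike levels. KRT19 was the highest, between 334.5 and 728.6 FPKM. KRT7 was the lowest, at 0.989 to 1.675 FPKM in CFPAC and 0.817 to 1.076 in KP3. The acinar marker CELA3A and the blood marker PTPRC did not exceed 0.078 and 0.042 FPKM. CD68, also listed as a blood marker, was at 47.5 to 76.9 FPKM. The summed fibroblast markers were 11.0 to 13.8 FPKM in CFPAC and 3.40 to 3.89 FPKM in KP3. Of these, DCN was 7.07 to 9.56 FPKM in CFPAC and 0.145 to 0.189 in KP3, while COL1A1 and COL1A2 overlapped between the lines, and their part in the line differences was not tested. No condition had a replicate library, and nothing in the labels tells of separate cultures.

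NEK6, the first siRNA target, had the highest FPKM of the members in both control libraries. Its FPKM in CFPAC was 15.3 with control, 4.09 with NEK6 and 14.2 with NEK7 siRNA, and in KP3 it was 21.3, 6.98 and 22.4. The NEK6 siRNA library was the lowest of each line, and the other libraries of that line lay close together. The level left was 26.9% of control in CFPAC (95% counting interval 25.3% to 28.5%) and 32.8% in KP3 (31.3% to 34.4%). In bulk RNA, fewer cells with the transcript and less of it per cell cannot be told apart. Such intervals cover counting error only, and sequenced fragments without molecular identifiers are not independent molecules. With NEK7 siRNA, NEK6 stood at 93.4% of control in CFPAC (89.7% to 97.2%) and at 105.2% in KP3 (101.9% to 108.7%).

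NEK7, the second target, was next in both controls. Its FPKM in CFPAC was 14.8 with control, 18.0 with NEK6 and 2.40 with NEK7 siRNA, and in KP3 it was 14.7, 12.4 and 5.79. The NEK7 siRNA library was the lowest of each line. The level left was 16.2% of control in CFPAC (15.1% to 17.3%) and 39.5% in KP3 (37.7% to 41.4%). These intervals of the lines did not overlap, and neither did those of NEK6 with NEK6 siRNA, but they cover counting error only. With NEK6 siRNA, NEK7 lay on opposite sides of control, at 121.2% of control in CFPAC (117.1% to 125.5%) and at 84.4% in KP3 (81.2% to 87.6%). This difference between the lines rests on 1 library each and was not tested.

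**Figure D1:**
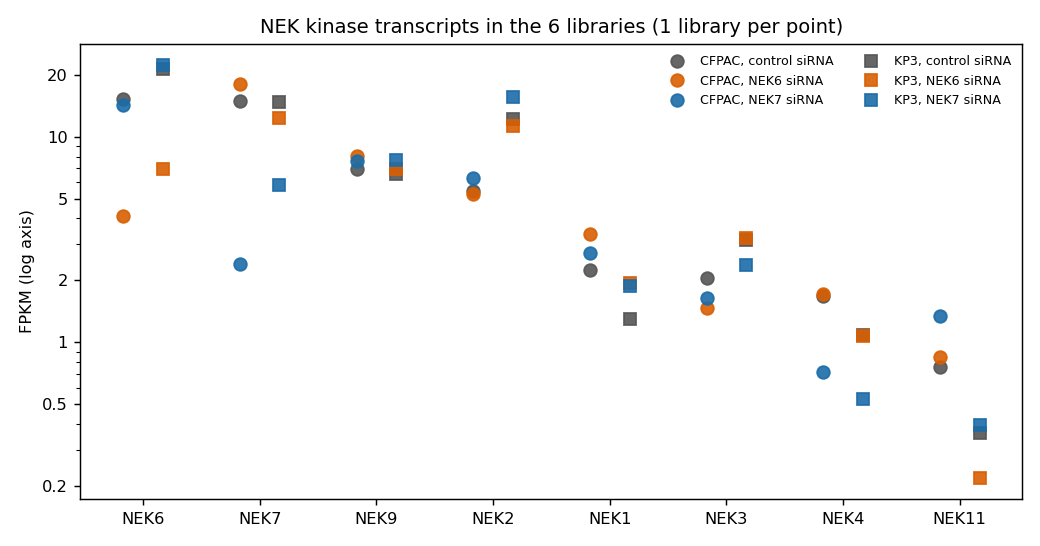
FPKM (log axis) of the 8 NEK kinases, 1 point per library, with circles for CFPAC, squares for KP3 and colours for the siRNA. NEK6 is lowest in the NEK6 siRNA library and NEK7 in the NEK7 siRNA library of each line, and NEK4 is also lowest with NEK7 siRNA, at 0.715 FPKM in CFPAC and 0.528 in KP3.

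NEK4 was the other member that was low in 1 condition of both lines. Its FPKM in CFPAC was 1.68 with control, 1.71 with NEK6 and 0.715 with NEK7 siRNA, and in KP3 it was 1.09, 1.07 and 0.528. The control and NEK6 siRNA libraries were nearly level within each line, and the NEK7 siRNA library lay below both. NEK4 stood at 42.6% of control in CFPAC (37.5% to 48.3%) and at 48.5% in KP3 (41.8% to 56.1%) with NEK7 siRNA. With NEK6 siRNA it stood at 101.7% (92.1% to 112.2%) and 98.5% (87.1% to 111.3%). These values rest on 266 to 827 counts per library.

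NEK1 was lowest in the control library of each line. Its FPKM in CFPAC was 2.23 with control, 3.34 with NEK6 and 2.73 with NEK7 siRNA, and in KP3 it was 1.29, 1.94 and 1.89. Both siRNA libraries lay above control in both lines, at 149.7% (139.7% to 160.4%) and 150.4% (137.6% to 164.4%) after NEK6 knockdown and 122.3% (113.8% to 131.4%) and 146.1% (133.8% to 159.5%) after NEK7 knockdown, for CFPAC and KP3. The comparisons share their control library in each line.

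The remaining members differed less from control, or differed unlike in the lines. NEK9, the upstream activator of NEK6 and NEK7, ranged from 6.93 to 8.08 FPKM in CFPAC and from 6.54 to 7.69 in KP3, and was lowest in the control of each line. NEK2 stood in CFPAC and KP3 at 96.0% and 92.3% of control after NEK6 knockdown and at 115.4% and 127.7% after NEK7 knockdown. NEK3 was below control in both lines with NEK7 siRNA, at 79.9% and 75.9%. With NEK6 siRNA, NEK3 stood at 71.5% in CFPAC and 102.6% in KP3. NEK11, with the lowest FPKM of the 8 members in both controls, reached no more than 1.34 FPKM. It stood at 176.6% of control (153.0% to 203.7%) with NEK7 siRNA in CFPAC but 109.5% (87.9% to 136.3%) in KP3, and with NEK6 siRNA at 110.9% and 60.3%.

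NEK11 values are uncertain. The gene ASTE1 overlaps NEK11 on the opposite strand, with up to 291.8% as many counts as NEK11 in a library, and another antisense record reached 39.4%. Whether the authors' counting used the strand is not stated. Of 13 records that overlap a member, these and ZC2HC1C, antisense to NEK9 at up to 4.16% of its counts, were the 3 with more than 20 counts in a library.

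**Figure D2:**
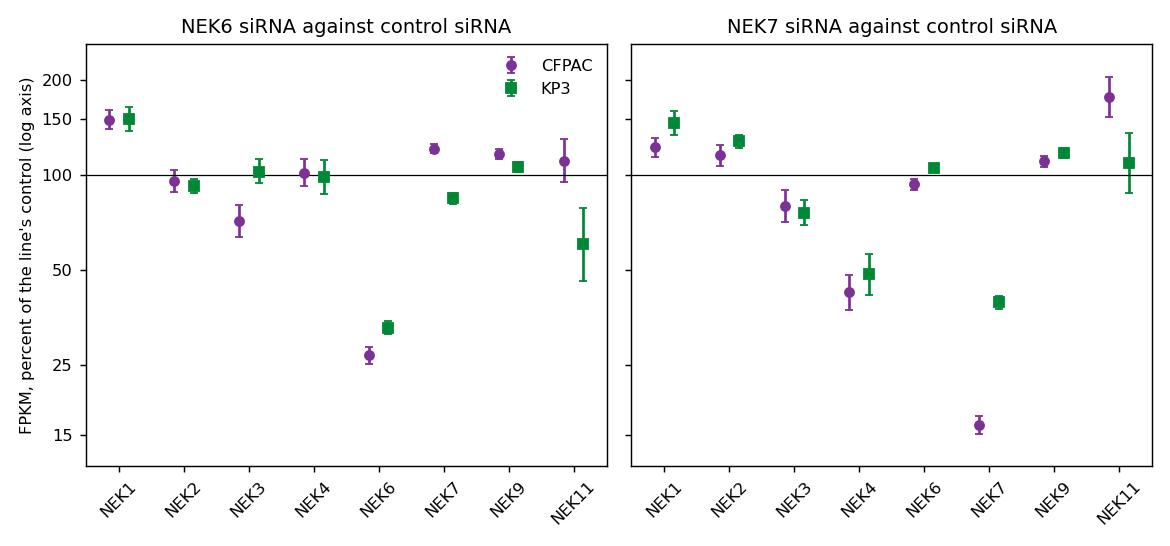
FPKM of each member with NEK6 siRNA (left) and NEK7 siRNA (right) as a percent of the control library of the same line (log axis), with circles for CFPAC, squares for KP3 and bars for 95% counting intervals. NEK6 lies furthest below 100% on the left, and NEK7 and NEK4 do on the right, while NEK7 lies on opposite sides of 100% on the left.

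Within a line, a gene was counted as past 1.5-fold on the log2(FPKM + 1) scale, which understates the change of low genes. With NEK6 siRNA, NEK6 was the 1 member of 8 lower past this size in CFPAC, where 4.72% of all tested genes were, and in KP3, where 4.42% were. With NEK7 siRNA, NEK4 and NEK7 were lower past it in CFPAC, against 4.82% of all genes, and NEK7 in KP3, against 4.90%. No member was higher past it, against 3.76% and 4.61% of all genes in CFPAC and 4.87% and 4.80% in KP3 for NEK6 and NEK7 siRNA. On the log2(FPKM + 0.1) scale NEK4 with NEK7 siRNA was at -0.92 in KP3 and NEK11 with NEK7 siRNA at 0.75 in CFPAC, both past the same size. The share of all genes past it on that scale was not computed. There is no replicate check on any of these counts.

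Across both lines the siRNA contrasts were tested with edgeR's quasi-likelihood test, with the line as a block and the Benjamini-Hochberg adjustment over 14582 genes. The fit leaves 2 residual degrees of freedom, which hold how far the lines disagree on an siRNA's effect. The test draws each gene's spread toward a trend over all genes, so an SE is not that gene's disagreement alone. NEK1 with NEK6 siRNA had log2 FPKM ratios of 0.582 in CFPAC and 0.589 in KP3, and an SE of 0.161. No gene passed an adjusted p of 0.05 for NEK6 siRNA against control (0% of genes), NEK7 siRNA against control (0%) or NEK7 against NEK6 siRNA (0%). At an unadjusted p under 0.05 there were 1073 genes (7.36%), 1372 (9.41%) and 1437 (9.85%), while limma called 0 genes and DESeq2 288 (1.98%), 369 (2.53%) and 475 (3.26%) after adjustment.

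For NEK6 siRNA against control, NEK6 was lower in 2 of 2 lines with a log2 fold change of -1.74 ± 0.13 (SE) and an edgeR adjusted p of 0.181. DESeq2 called NEK6 alone of the 8 members, with an adjusted p of 1.845e-25, and over all alternatives the adjusted p of NEK6 ranged from there to 1. NEK1 was higher in 2 of 2 lines by a log2 fold change of 0.59 ± 0.16, with an edgeR adjusted p of 0.614 and 0.0975 to 1 over the alternatives, the lowest from DESeq2. NEK7 was at 0.06 ± 0.43, and leaving out the NEK7 siRNA library of CFPAC or of KP3 took its SE to 0.171 or 0.173.

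For NEK7 siRNA against control, NEK7 had a log2 fold change of -1.93 ± 0.45 (SE) and NEK4 one of -1.17 ± 0.22, both lower in 2 of 2 lines. Their edgeR adjusted p-values were 0.492 and 0.469. DESeq2 called both and no other member, with adjusted p-values of 0.00193 and 0.000779, and over the alternatives both ranged from these to 1. NEK4 reached the filter of 1 FPKM only in control and NEK6 siRNA libraries, so it was tested only through the groups where it is high. NEK6, the close paralog of the target, was at -0.05 ± 0.13. The value of NEK7 was -1.24 without the CFPAC NEK7 siRNA library and -2.81 without the KP3 NEK7 siRNA library. With 1 such library per line, a difference between lines cannot be told apart from one between single libraries.

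NEK7 against NEK6 siRNA sets the knockdown libraries against each other, but the control libraries remain in the fit and enter its spread. The NEK7 siRNA libraries are the same ones that were set against control, so this contrast is not an independent check. NEK4 was lower with NEK7 siRNA in 2 of 2 lines here too, with a log2 fold change of -1.17 ± 0.22 (SE), an edgeR adjusted p of 0.317 and a DESeq2 adjusted p of 0.000499, the lowest of alternatives that reached 1. NEK6 was at 1.70 ± 0.13 and NEK7 at -1.99 ± 0.46. DESeq2 called these 3 members, of which NEK4 had passed the filter only through libraries without NEK7 siRNA. NEK1 was at -0.20 ± 0.16, with an edgeR adjusted p of 0.705. NEK2 was at 0.33 ± 0.14, with edgeR and DESeq2 adjusted p-values of 0.529 and 0.363.

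The make-up of the family differed between the libraries. The summed FPKM of the 8 members was 49.2 with control, 42.8 with NEK6 and 37.0 with NEK7 siRNA in CFPAC, and 60.6, 44.0 and 56.7 in KP3. NEK6 and NEK7 together made up 61.1% of it in the CFPAC control and 59.3% in the KP3 control. Their share was 51.6% and 44.9% with NEK6 and NEK7 siRNA in CFPAC, and 44.0% and 49.7% in KP3. The ratio of NEK7 to NEK6 FPKM was 0.972 in the CFPAC control and 0.689 in the KP3 control. It was 4.39 and 1.77 after NEK6 knockdown and 0.168 and 0.259 after NEK7 knockdown. The ratio thus moved further in CFPAC than in KP3 with each siRNA, on 1 library each.

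**Figure D3:**
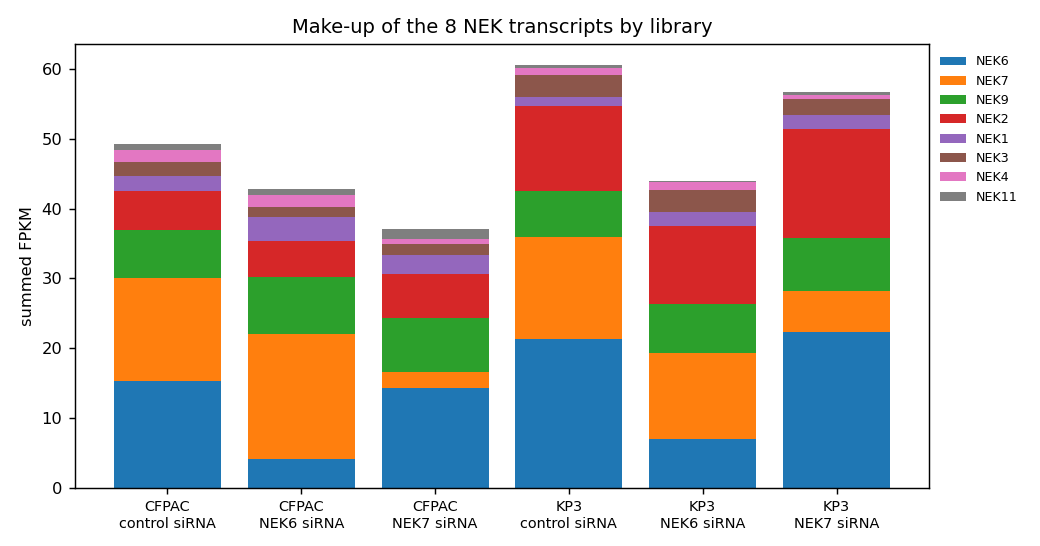
Summed FPKM of the 8 NEK kinases in each library, stacked by member. NEK6 and NEK7 are the lowest 2 layers and make up 61.1% and 59.3% of the sum in the CFPAC and KP3 controls, and the layer of the targeted gene is thin in each knockdown library.

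In the controls the order of FPKM, which rests on the length used for each gene, was NEK6, NEK7, NEK9, NEK2, NEK1, NEK3, NEK4 and NEK11 in CFPAC. In KP3 it was NEK6, NEK7, NEK2, NEK9, NEK3, NEK1, NEK4 and NEK11. Over the 3 libraries of a line the ranges of NEK6 and NEK7 overlapped in both lines, as did those of NEK7 and its next neighbour. In CFPAC the ranges of NEK3 and NEK4 and those of NEK4 and NEK11 overlapped too. All other neighbours were apart, so the place of NEK2 above NEK9 in KP3 and below it in CFPAC held in all 3 libraries of each line.

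For CFPAC against KP3 the 3 libraries of each line were compared with siRNA as a factor. NEK2 gave the clearest difference between the lines. Its FPKM was 5.46, 5.24 and 6.30 in CFPAC and 12.2, 11.3 and 15.6 in KP3, for control, NEK6 and NEK7 siRNA. The KP3 libraries all lay above the CFPAC libraries, by 2.24-fold, 2.15-fold and 2.48-fold at matched siRNA. The log2 fold change of CFPAC against KP3 was -1.15 ± 0.11 (SE), with an edgeR adjusted p of 0.00123.

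NEK11 and NEK1 were higher in CFPAC. NEK11 was at 0.761, 0.845 and 1.34 FPKM in CFPAC and 0.362, 0.218 and 0.396 in KP3. The lines did not overlap, and the log2 fold change was 1.63 ± 0.31 (SE) with an edgeR adjusted p of 0.00925. NEK11 reached the filter of 1 FPKM only in the CFPAC NEK7 siRNA library, so it was tested only through the line where it is high. Without the CFPAC NEK7 siRNA library the adjusted p of NEK11 was 0.053, the highest of alternatives that began at 1.58e-05, and the overlap with ASTE1 applies here too. NEK1 also did not overlap between the lines, and differed by 0.75 ± 0.13 with an edgeR adjusted p of 0.00739.

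NEK3 was lower in CFPAC, at 1.47 to 2.05 FPKM against 2.38 to 3.21 in KP3. Its log2 fold change was -0.71 ± 0.19 (SE), with an edgeR adjusted p of 0.0283. NEK4 was higher in CFPAC at each siRNA, by 0.62 ± 0.18 with an edgeR adjusted p of 0.0341, although its ranges overlap through the NEK7 siRNA libraries. The calls of NEK3 and NEK4 were lost without any 1 of the 6 libraries, with adjusted p-values of 0.0607 to 0.109 and 0.0753 to 0.151. NEK6 was lower in CFPAC at each siRNA, at -0.59 ± 0.11 with an edgeR adjusted p of 0.00773. Its ranges overlap through the knockdowns, and its call was lost without siRNA as a factor (adjusted p 0.442).

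NEK7 and NEK9 were not called. NEK7 was 14.8 and 14.7 FPKM in the control libraries. Its matched ratios of CFPAC to KP3 were 1.01 with control, 1.45 with NEK6 and 0.414 with NEK7 siRNA, and its log2 fold change was -0.18 ± 0.36 (SE). NEK9 was at 0.14 ± 0.10, with ratios of 1.06, 1.17 and 0.995. In all, 6 of the 8 members were called, 3 higher and 3 lower, where 56.4% of all tested genes were. The 3 higher include NEK11, which was tested only through a CFPAC library. The ranges of the lines did not overlap for 2 members with CFPAC above (31.2% of all genes) and 2 with CFPAC below (33.0%). With 8 genes, these counts show nothing particular to the family.

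**Figure D4:**
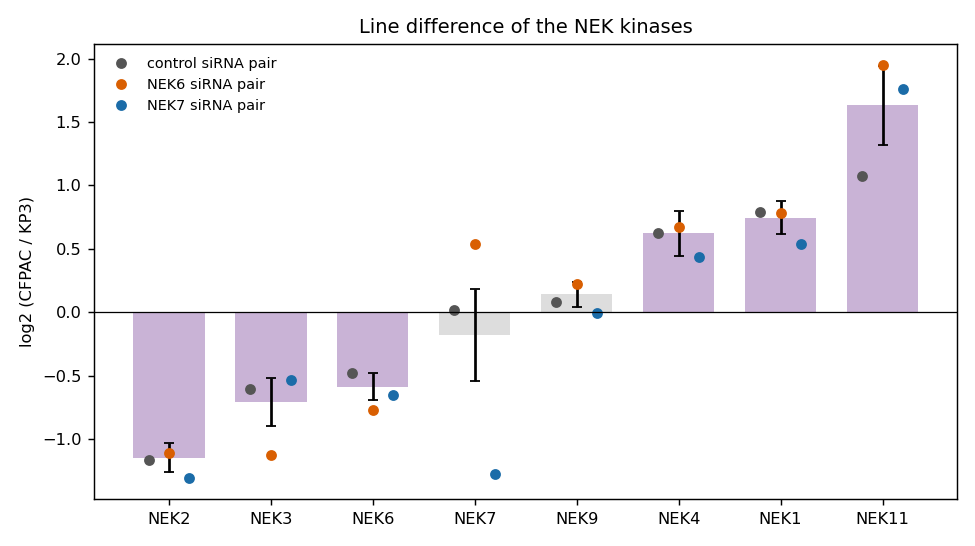
Log2 ratio of CFPAC to KP3 for each member, with bars for the edgeR log2 fold change, error lines for its SE, points for the FPKM ratio at each siRNA, and purple bars for members with an adjusted p under 0.05. The 3 points of NEK2 lie together near the bar at -1.15, and those of NEK7 are spread on both sides of 0.

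NEK2 is known as a gene of the G2 and M phases, so 34 other such genes were set beside it. In CFPAC against KP3, edgeR called 14 of the 34 higher and 4 lower, a share near the 56.4% of all tested genes called. Their median log2 fold change was 0.34, against -0.00095 for all tested genes. NEK2 thus lay on the other side of 0 from this median. The highest were CENPA, the centromeric histone, at 1.31 ± 0.19 (SE), NDC80, a kinetochore protein that NEK2 phosphorylates, at 1.20 ± 0.12, and UBE2C, a mitotic ubiquitin carrier, at 0.93 ± 0.10. Of the 4 lower genes, which were named after their values were seen, the kinase PLK1 had the largest difference, -0.64 ± 0.12, followed by CDC25C, AURKB and CDCA8. Leaving out 1 library gave 9 or 14 higher and 1 lower, 9 without a control or NEK6 siRNA library of either line.

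**Figure D5:**
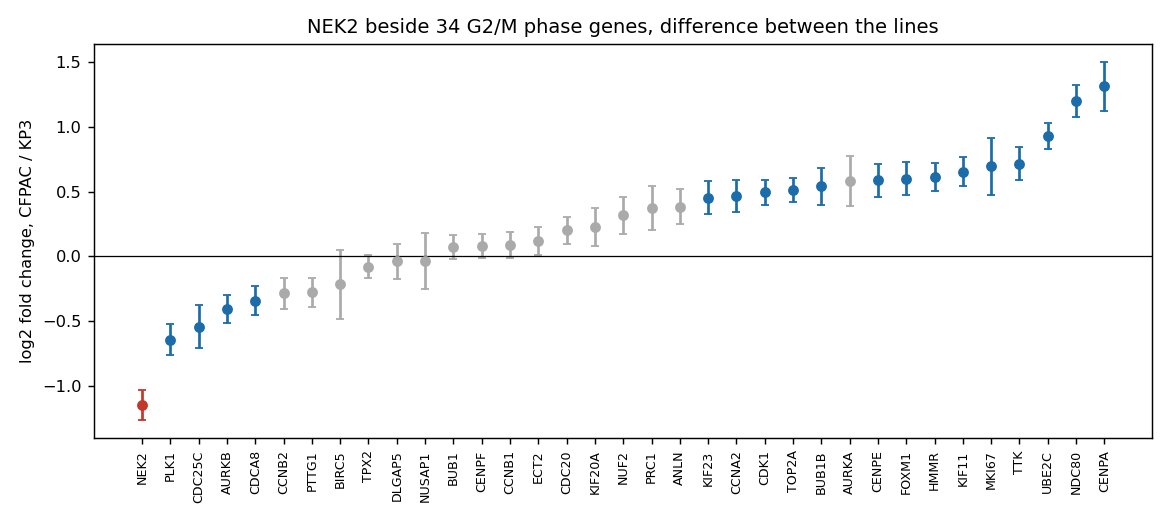
EdgeR log2 fold change of CFPAC against KP3 for NEK2 (red) and 34 G2/M phase genes, with bars for the SE and blue for genes with an adjusted p under 0.05. NEK2 at -1.15 lies below all 34, the lowest of which is PLK1 at -0.64.

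The promoter of NEK2 is printed because NEK2 had the lowest edgeR adjusted p of the 8 members between the lines. In RefSeq (GRCh38.p14) the stretch from 250 bases before to 50 bases after its start lies at chr1:211675572-211675871 on the minus strand. It was searched on both strands for CCAAT, the letters of the CCAAT box, and for TTTGAA, the cell cycle homology element found in many G2/M promoters. The 2 matches of CCAAT, in capitals, begin at -66 and -34 from the start.
NEK2: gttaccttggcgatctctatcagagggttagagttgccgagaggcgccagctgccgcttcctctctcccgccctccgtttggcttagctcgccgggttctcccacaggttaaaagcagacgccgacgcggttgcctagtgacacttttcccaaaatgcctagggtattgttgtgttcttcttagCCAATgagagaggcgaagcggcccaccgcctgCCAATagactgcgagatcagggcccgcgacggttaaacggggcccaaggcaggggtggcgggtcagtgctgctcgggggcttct
TTTGAA had 0 matches in this window, which says only that these letters are not in it. CCAAT was in 34.6% and TTTGAA in 15.2% of 35116 promoters of the same length. Promoters were matched for 7 of the 8 members, 13 in all. None held TTTGAA, and CCAAT was also in 1 promoter each of NEK6 and NEK11.

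The same 34 genes showed no edgeR call in the siRNA contrasts. With NEK6 siRNA their median log2 fold change was -0.17, with 19 lower and 2 higher in both lines, where 27.7% of all tested genes were lower and 27.6% higher in both. EdgeR gave 4 of the 34 an unadjusted p under 0.05, against 7.36% of all tested genes. The largest with the same sign in both lines were NUSAP1 at -0.58 ± 0.26 (SE), CDCA8 at -0.45 ± 0.14 and UBE2C at -0.44 ± 0.12. On the log2(FPKM + 1) scale NUSAP1 differed by -0.99 in CFPAC and -0.11 in KP3. With NEK7 siRNA the median was 0.02, and DESeq2 called ANLN, which organises the contractile ring, lower (-0.63 ± 0.16, adjusted p 0.492 in edgeR and 0.0487 in DESeq2). DESeq2 also called the kinetochore protein CENPF higher (0.42 ± 0.11, adjusted p 0.492 in edgeR and 0.0171 in DESeq2), a gene named after its values were seen. Of all tested genes, DESeq2 called 2.53% with NEK7 siRNA.

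Partners, regulators and substrates of the family were listed as 38 genes, of which 35 were tested. In CFPAC against KP3, edgeR called 14 higher and 9 lower, against 56.4% of all tested genes called in either direction, and the median log2 fold change was 0.04, against -0.00095 for all genes. The largest difference was in NLRP3, the partner of NEK7, which had 377, 418 and 262 counts in CFPAC and 0 in each KP3 library. NLRP3 passed the filter only through CFPAC and close to its value of 1 FPKM. It was at 1.13 FPKM there with control, 1.16 with NEK6 and 0.724 with NEK7 siRNA. Against a floor of 3 counts per library it was at least 136-fold, 131-fold and 89.9-fold higher in CFPAC. VAV2, a partner of NEK3, followed at a log2 fold change of 2.93 ± 0.10 (SE), and EML2, a microtubule protein of the EML family, at -2.68 ± 0.10. Leaving out 1 library gave 13 higher and 5 or 6 lower.

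In the siRNA contrasts edgeR called 0 of the 35 partners. DESeq2 called 1 of the 35 with NEK6 siRNA, against 1.98% of all tested genes. This was PXN, the focal adhesion protein paxillin, which was lower. PXN was 53.4 FPKM in the CFPAC control and 42.3 with NEK6 siRNA, and 43.4 and 30.7 in KP3, a log2 fold change of -0.41 ± 0.11 (SE) in edgeR with adjusted p-values of 0.586 in edgeR and 0.0243 in DESeq2. DESeq2 also called 1 of the 35 with NEK7 siRNA, against 2.53% of all tested genes. This was EML4, a microtubule protein phosphorylated by NEK6 and NEK7, which was higher. EML4 was 6.33 FPKM with control and 11.5 with NEK7 siRNA in CFPAC, and 23.7 and 45.9 in KP3, at 0.88 ± 0.23 in edgeR with adjusted p-values of 0.492 in edgeR and 0.0376 in DESeq2. The phosphatase CDC25A was at 0.55 ± 0.19 after NEK6 knockdown and 0.39 ± 0.19 after NEK7 knockdown, and neither edgeR nor DESeq2 called it. SGO1 was at -0.40 ± 0.28 with NEK6 siRNA and VDAC1 at -0.39 ± 0.17 with NEK7 siRNA. On the log2(FPKM + 1) scale SGO1 differed by -0.028 in CFPAC and -0.48 in KP3, and VDAC1 by -0.59 and -0.10. In NEK7 against NEK6 siRNA, EML4 was at 0.53 ± 0.23, the kinase STK3 at -0.53 ± 0.15 and TLK1 at -0.42 ± 0.12.

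Of 20 other mitotic and centrosomal kinases, edgeR called 8 higher and 4 lower in CFPAC, a share near the 56.4% of all tested genes, with a median log2 fold change of 0.56, against -0.00095 for all genes. The largest differences were PLK2 at -1.88 ± 0.13 (SE), MASTL at 1.51 ± 0.11 and PKMYT1 at 1.14 ± 0.13. Leaving out 1 library gave 6 to 8 higher and 2 lower. In the siRNA contrasts edgeR and DESeq2 called none of the 20. An unadjusted edgeR p under 0.05 was given to 4, 2 and 3 of them for NEK6 against control, NEK7 against control and NEK7 against NEK6 siRNA. The shares of all tested genes were 7.36%, 9.41% and 9.85%. WEE1, which holds CDK1 inactive, was at 0.63 ± 0.17 with NEK6 siRNA, STK4 at -1.01 ± 0.73 and PKMYT1 at -0.49 ± 0.16. On the log2(FPKM + 1) scale STK4 differed by -1.64 in CFPAC and -0.39 in KP3. With NEK7 siRNA AURKB was at -0.46 ± 0.14, AURKA at -0.44 ± 0.24 and PLK3 at -0.42 ± 0.22. AURKA differed by -0.74 in CFPAC and -0.099 in KP3 on the log2(FPKM + 1) scale. In NEK7 against NEK6 siRNA STK3 was at -0.53 ± 0.15, BUB1B at 0.45 ± 0.18 and PLK2 at -0.43 ± 0.15, and of the G2/M genes KIF20A was at 0.54 ± 0.18, NUF2 at -0.49 ± 0.17 and CDCA8 at 0.47 ± 0.14. With NEK7 siRNA against control BIRC5 was at -0.64 ± 0.33 and NUF2 at -0.54 ± 0.17. BIRC5 differed by -0.83 in CFPAC and -0.042 in KP3 on the log2(FPKM + 1) scale.

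The genes whose pattern over the 6 libraries was most like each member were found by the distance between log2(FPKM + 1) values after subtracting each gene's mean. For NEK6 these were LRP11 at a distance of 0.362 and the mitochondrial ribosomal gene MRPL49 at 0.490. LRP11 was 11.7, 3.64 and 11.8 FPKM in CFPAC and 18.0, 4.50 and 21.0 in KP3 for control, NEK6 and NEK7 siRNA. It was lowest with NEK6 siRNA in both lines, but it was picked for likeness to NEK6, so this is no separate result. For NEK7 they were PGRMC1 at 0.911 and PDXK at 1.09, and PGRMC1 was 81.3, 76.5 and 26.6 FPKM in CFPAC and 59.4, 51.5 and 33.1 in KP3. For NEK4 they were PSMC2, a proteasome ATPase, at 0.193 and MRPL47 at 0.1999. The distances were 0.113 and 0.136 for ASCC3 and TFDP1 with NEK1, and 0.0927 and 0.106 for MAL2 and EPHA4 with NEK2. They were 0.0970 and 0.116 for GET4 and RHBDL1 with NEK3, and 0.0438 and 0.0480 for RSF1 and TUBGCP2, a gamma-tubulin complex component, with NEK9. For NEK11 they were 0.101 and 0.105 for CDCA2 and LNPEP. MAL2 and EPHA4 are low genes, for which adding 1 FPKM shrinks fold differences. MAL2 was 0.0315, 0.0704 and 0.234 FPKM in CFPAC and 1.20, 1.04 and 1.66 in KP3. EPHA4 was 0.411, 0.292 and 0.460 FPKM in CFPAC and 1.82, 1.54 and 2.60 in KP3. Their small distance to NEK2 thus does not mean a like fold change.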

How the data were processed

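Libraries were made from total RNA with oligo(dT) beads, per the labels' protocols. The submitters' processing notes name cutadapt 1.9, HISAT2 2.0.4, StringTie 1.3.4d and edgeR, with no role or order. The authors deposited a table with a read count (whole numbers, not normalized) and an FPKM value for each gene and library. No source used here states the genome build. The table's coordinates of all 8 members overlapped GENCODE v29 (GRCh38) on the same chromosome and strand.

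Genes were kept if any 1 library reached an FPKM of 1. Their counts were fitted in edgeR 4.0.16 (R 4.3.3) with TMM normalization and an additive model of line and siRNA, and tested by its quasi-likelihood F test with Benjamini-Hochberg adjustment over 14582 genes and a threshold of 0.05. The common dispersion gave a biological coefficient of variation of 26.2%. DESeq2 1.42.0 and limma 3.58.1 were alternatives, with other scalings, filters, pseudocounts, no second factor and each library left out. Tests were tried on simulated data. Within a line, FPKM ratios have intervals from both counts and no test. Other tools were Python 3.11.15, numpy 2.4.6, pandas 2.3.3, scipy 1.17.1 and matplotlib 3.10.9.

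All members were named. For each list and siRNA contrast, up to 3 genes were named with the largest edgeR log2 fold change among those moving alike. Moving alike means the same sign in both lines, and the sizes could differ. Between lines, up to 3 genes with the largest edgeR log2 fold change were named among those called. For each member, the 2 genes of most similar pattern were named. Members and lists were chosen with earlier results of these data known.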

Additional observations from a re-analysis of the deposited data

Results flagged for a closer look

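The paralog of each siRNA target lay on opposite sides of its control in the lines. NEK7 with NEK6 siRNA had a log2 FPKM ratio to control of 0.28 in CFPAC and -0.25 in KP3. NEK6 with NEK7 siRNA had one of -0.10 in CFPAC and 0.074 in KP3. Each value compares 1 library with 1 library, and the difference between the lines was not tested. With NEK6 siRNA, 27.7% of all tested genes were lower and 27.6% higher in both lines, so many other genes did not move alike either. The shares with NEK7 siRNA were not computed.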

How the results depend on the processing

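By replicate number, no paired analysis was possible because the labels carry none. The reported fits matched libraries by line or siRNA, and the fits without that factor are given as alternatives. DESeq2 called 1, 2 and 3 members and 288, 369 and 475 genes for NEK6 against control, NEK7 against control and NEK7 against NEK6 siRNA, where edgeR called 0. The cause was not tested. Leaving out each library gave 0 to 1 genes in both NEK7 siRNA contrasts, 1 without the CFPAC NEK7 siRNA library. For CFPAC against KP3, a mean FPKM of at least 5 tested fewer genes, 4 of them members, and called 2 members and 4122 genes. The share of tested genes called there was not computed. Leaving out libraries gave 3 to 4 members, 3 without the CFPAC NEK7 siRNA library, and 6422 to 6529 of 14582 genes. Upper-quartile scaling shifted the median of all genes by -0.11 (log2), took the median of the partners to -0.07 and lost the call of NEK4 (adjusted p 0.0588), which limma (0.0816) no filter (0.0785) and no siRNA factor (0.226) also lost. The count of members past 1.5-fold was 2 for NEK7 siRNA in KP3 with a pseudocount of 0.1 and with library-scaled counts. It was 2 for NEK6 siRNA in CFPAC and in KP3 with library-scaled counts. The shares of all tested genes past this size on these scales were not computed, so these counts have no background.

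Reversals were in values near 0 or opposite in the lines. In NEK6 siRNA against control, leaving out libraries gave -0.50 to 0.058 for NEK3, -0.064 to 0.072 for NEK4, -0.60 to 0.56 for NEK7 and -0.69 to 0.10 for NEK11, and no filter gave -0.0087 for NEK4. NEK6 with NEK7 siRNA ranged from -0.17 to 0.077. In NEK7 against NEK6 siRNA, NEK3 ranged from -0.45 to 0.10 and NEK9 from -0.093 to 0.090, and NEK9 was 0.018 with no filter, 0.031 with limma and 0.035 with its pseudocount of 0.1. Between lines NEK7 ranged from -0.58 to 0.33, with 0.15 without siRNA as a factor and 0.016 in the controls alone. Counts per library were lowest for NEK11, at 85 to 546, and NEK4, at 266 to 827.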
